A study of Mus musculus with 32 samples.

Results

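The Fc gamma receptor genes of the mouse were followed through 32 RNA sequencing libraries of bone marrow-derived macrophages. They were found by symbol, and all 5 members were present among the 56953 genes of the count table: Fcgr1, Fcgr3 and Fcgr4, which encode activating receptors, Fcgr2b, which encodes the inhibitory receptor, and Fcer1g, which encodes the signalling chain that the activating receptors share. All 5 were among the 14427 genes that passed the filter on low counts, with 497 to 28509 read pairs per library. Bone marrow-derived macrophages are grown from marrow cells with L929 cell supernatant as a source of M-CSF, here from mice 8 to 12 weeks old on the C57BL/6J background. The mice were wild type (WT, labelled Irg1+/+ or C57BL/6J) or homozygous for a knockout (KO) of Acod1, also called Irg1, which encodes the enzyme that makes itaconate. Cells of each genotype were left untreated (control) or given 100 nM dexamethasone, a synthetic glucocorticoid, 100 ng lipopolysaccharide (LPS), a bacterial cell wall component, or both, for 24 h. Each of the 8 groups held 4 libraries. Whether the 4 were raised from different mice is not stated in the labels. The p-values therefore rest on library-to-library spread, which may be partly technical.

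Fc gamma receptors bind the constant part of IgG and let a macrophage take up antibody-coated particles and respond to immune complexes. The activating receptors pass their signal through the ITAM motif of the Fcer1g chain, which Src family kinases phosphorylate and the kinase Syk then binds. Fcgr2b carries an ITIM motif in its own tail and recruits phosphatases such as SHIP, the product of Inpp5d, when it is engaged together with an activating receptor. The balance of the activating and inhibitory receptors on a cell is known to set its threshold for immune complexes, and macrophages are a main cell type that carries all of them.

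The count table places 4 of the 5 genes close together on chromosome 1 (annotation GENCODE vM32). Fcgr2b lies at chr1:170786186-170804116 on the minus strand, Fcgr4 at chr1:170846489-170857330 on the plus strand, Fcgr3 at chr1:170878743-170892504 on the minus strand and Fcer1g at chr1:171057141-171061934 on the minus strand. Fcgr1 lies apart, at chr3:96190225-96201285 on the minus strand. Fcgr3 and Fcgr2b are close relatives in sequence, which matters here because they encode receptors of opposite sign. Over 509 aligned bases of coding sequence they were 96.5% identical, against 66.1% for Fcgr3 and Fcgr4. The longest identical run spans 129 bases, coding positions 263 to 391 of Fcgr3 and 278 to 406 of Fcgr2b, counted from the first base of the coding sequence in the GENCODE vM21 transcripts, and is shown because read pairs that lie wholly inside it cannot be assigned to either gene.

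Run shared by Fcgr3 and Fcgr2b: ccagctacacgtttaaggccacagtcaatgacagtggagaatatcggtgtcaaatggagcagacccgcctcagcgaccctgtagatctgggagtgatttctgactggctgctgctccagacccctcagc

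In the longest coding transcript of Fcgr3, 12.8% of 50-base windows and 3.53% of 100-base windows also occurred in Fcgr2b. None of its 150-base windows occurred in another gene. Fcgr2b shared 8.6% of its 50-base windows and 5.7% of its 100-base windows with another gene, part of them a repeat found in Cplx2 and Rab3c. Fcgr1, Fcgr4 and Fcer1g shared none. Pairs that map to several places were not counted, so the level of Fcgr3 and Fcgr2b could be understated, by an amount that depends on the length of the reads.

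The promoters of the 3 activating genes are shown because these genes moved apart from one another in the comparisons. Each is the 250 bases before the start site, from RefSeq on GRCm38.p6, printed 5′ to 3′ on the gene's strand. Capitals mark matches to a GAS element (TTCNNNGAA), an ISRE-like element or a PU-box (GAGGAA, on the other strand TTCCTC), which are known as binding motifs of transcription factors of interferon signalling and of the Ets family. The positions are chr3:96293970-96294219 (minus strand) for Fcgr1, chr1:171059404-171059653 (minus strand) for the first listed start of Fcgr3 and chr1:171018676-171018925 (plus strand) for Fcgr4.

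Fcgr1: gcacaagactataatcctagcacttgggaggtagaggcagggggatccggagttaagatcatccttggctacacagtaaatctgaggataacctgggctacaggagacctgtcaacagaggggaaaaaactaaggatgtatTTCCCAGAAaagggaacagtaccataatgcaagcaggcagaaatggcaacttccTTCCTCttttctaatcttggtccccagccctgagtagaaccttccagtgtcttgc

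Fcgr3: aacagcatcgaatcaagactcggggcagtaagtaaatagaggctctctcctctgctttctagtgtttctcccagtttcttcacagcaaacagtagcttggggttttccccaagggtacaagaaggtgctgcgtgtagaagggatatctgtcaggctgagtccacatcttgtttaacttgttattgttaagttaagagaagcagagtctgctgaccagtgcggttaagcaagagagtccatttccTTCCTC

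Fcgr4: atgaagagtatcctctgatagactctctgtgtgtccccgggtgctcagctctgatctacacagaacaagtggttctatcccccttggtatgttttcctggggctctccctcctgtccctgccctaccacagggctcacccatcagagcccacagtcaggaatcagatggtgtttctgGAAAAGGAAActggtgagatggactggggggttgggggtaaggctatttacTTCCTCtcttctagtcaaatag

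Both strands were searched. The GAS element of Fcgr1 lay at -109 to -101 from the start and the ISRE-like element of Fcgr4 at -73 to -64. A PU-box lay at -55 to -50 in Fcgr1, at -22 to -17 in Fcgr4 and at -6 to -1 in Fcgr3. None of these 3 motifs was in the windows of Fcgr2b and Fcer1g. Among 32851 promoter windows of this length, 7.02% held the GAS element, 2.98% the ISRE-like element and 23.3% the PU-box. No member's window held the glucocorticoid receptor element (in 0.387% of windows) or the AP-1 site (TGAGTCA, in 4.46%), and the kappaB pattern (in 45.8%), whose matches can overlap one another, was in the windows of Fcgr2b, Fcgr3, Fcgr4 and Fcer1g. A match describes letters and not a binding site.

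Library totals ran from 17559079 to 25049200 read pairs assigned to genes. Levels are given in CPM, read pairs scaled to a common library total after TMM normalization, and effects as log2 fold changes ± SE from the edgeR quasi-likelihood test on all 32 libraries, with a gene called where its p, adjusted by Benjamini and Hochberg over the genes tested, was under 0.05. Acod1 reads were present in libraries of both labels (under LPS 6483 ± 249 CPM for WT and 4995 ± 133 CPM for KO, SD, n = 4). Since the deleted stretch of Acod1 is not named in the labels, these reads are no check of the KO label. All WT libraries came from sequencing lane 3, all KO libraries with LPS from lane 2, and of the KO libraries without LPS 1 came from lane 2 and 1 was merged. Macrophage markers were high everywhere: the 10 listed summed to between 17700 and 31900 CPM. Of the markers of other cells that carry Fc receptors, some were near 0, with 1 read pair of Ms4a1 and 3 of Pax5 (B cells), 1 of Ncr1 (NK cells), 0 of Fcer1a and Mcpt4 (mast cells), 5 of Ly6g and 4 of Mpo (neutrophils) over all 32 libraries. Others on the same lists were not: Ighm (B cells) reached 104 CPM, Csf3r (neutrophils) ran from 32.2 to 86.1 CPM, Kit (mast cells) reached 24.7 CPM, Flt3 (dendritic cells) 15.7 CPM and Cd247 (T and NK cells) 10.8 CPM.

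LPS raised the inhibitory receptor gene far more than any activating one. In WT, Fcgr2b stood at 49.8, 49.6, 50.5 and 47 CPM in the control libraries and at 344, 350.1, 340.1 and 328 CPM with LPS. That is a 6.91-fold rise, a log2 fold change of 2.79 ± 0.042 (edgeR, adjusted p = 8.34e-46), with no overlap between the groups. Fcgr1, the high-affinity receptor CD64, rose 1.4-fold (0.49 ± 0.052) and Fcgr3, the low-affinity receptor CD16, rose 1.56-fold (0.64 ± 0.042). Fcgr4, an activating receptor of intermediate affinity, fell in WT, from 42, 36.8, 35.9 and 37 CPM to 32.1, 29, 26.3 and 27.4 CPM (-0.40 ± 0.068, adjusted p = 7.61e-07). The shared chain Fcer1g rose 1.61-fold, from 726 ± 9.82 to 1170 ± 59.8 CPM (SD, n = 4). All 5 members were thus called in WT, 4 higher and 1 lower, where 75.7% of tested genes were called.

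In KO libraries 4 of the 5 members differed with LPS, all upwards, where 76.1% of tested genes were called. This comparison crosses lanes: the LPS libraries all came from lane 2, while 3 controls came from lane 3 and 1 was merged. Fcgr2b rose 7.44-fold (2.90 ± 0.042), from 45.3 ± 1.92 to 337 ± 17.3 CPM. Fcgr1 rose by 0.73 ± 0.052, Fcgr3 by 0.76 ± 0.042 and Fcer1g by 0.68 ± 0.031 on the log2 scale. Fcgr4 was at 38.2 ± 2.61 CPM in control and 40.2 ± 3.95 CPM with LPS, and its difference of 0.07 ± 0.064 (adjusted p = 0.309, 95% interval -0.06 to 0.2) was not called. With no scaling beyond the library total it was -0.17 and called as lower (adjusted p = 0.0163). In bulk RNA, a change in the number of cells that express a gene and a change in RNA per cell cannot be told apart.

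**Figure D1:**
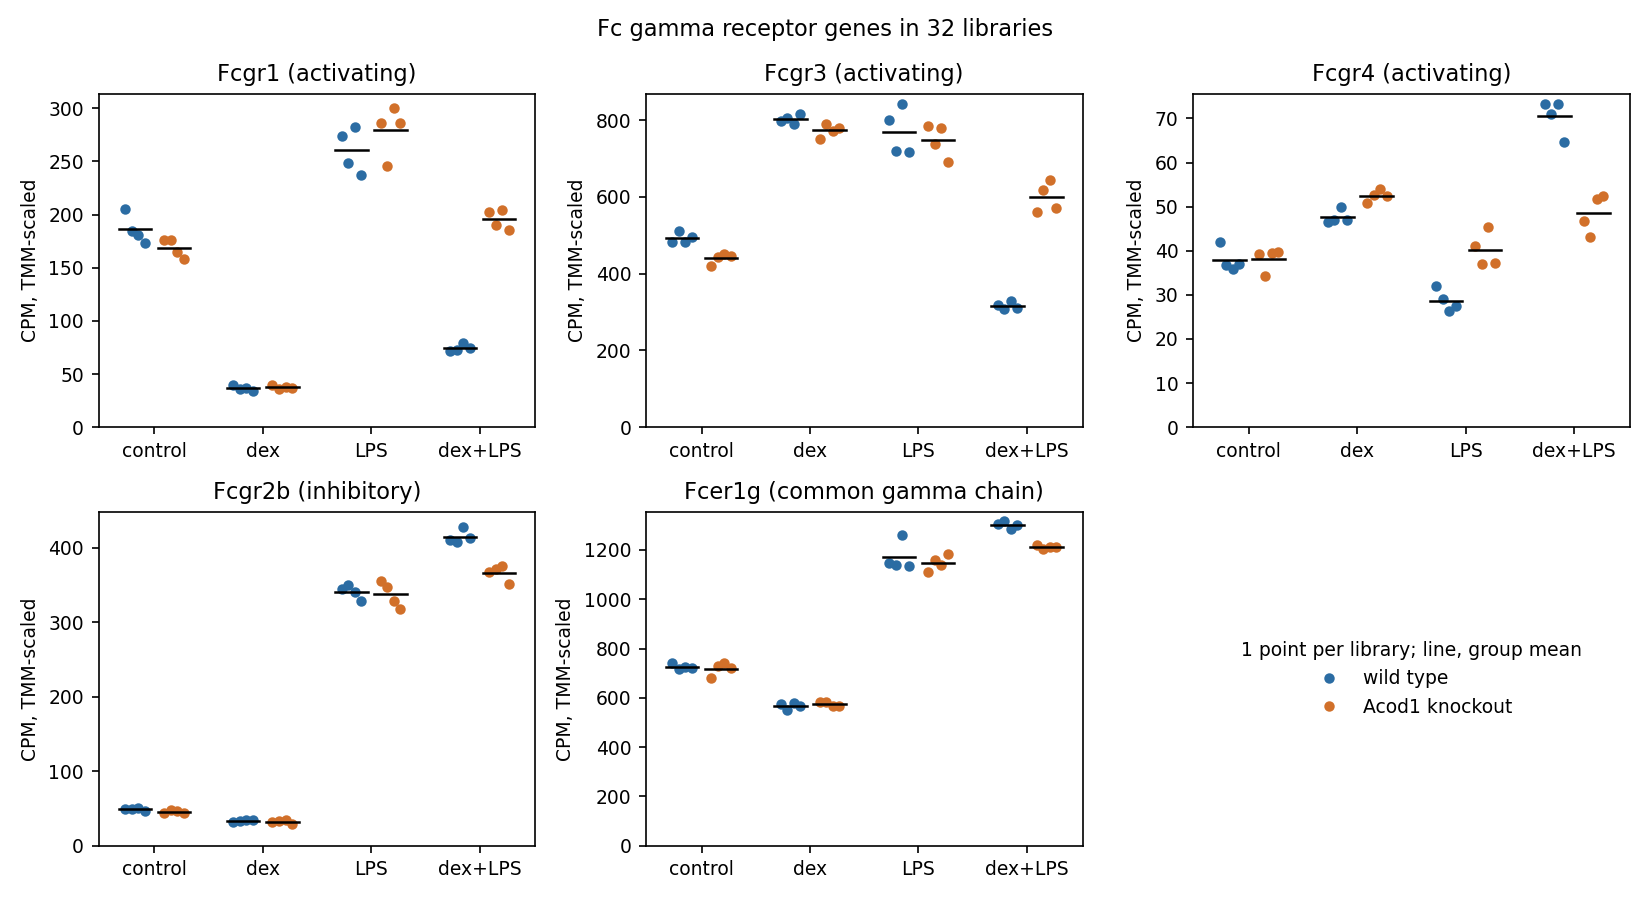
Level of each Fc gamma receptor gene in every library (y axes, CPM, each starting at 0), by treatment (x axes) and genotype (colour). Each point is 1 library and each line a group mean. Fcgr2b lies at 50.5 CPM or below in every library without LPS and at 318 CPM or above in every library with LPS. In Fcgr1, Fcgr3 and Fcgr4 the genotypes differ most with dexamethasone plus LPS (log2 fold changes, KO against WT, of 1.40, 0.92 and -0.54). Fcgr2b (-0.18) and Fcer1g (-0.10) differ less there, and Fcgr4 also differs with LPS alone (0.49). In the groups with LPS, genotype and sequencing lane coincide.

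Dexamethasone alone lowered Fcgr1 strongly and raised the other activating genes. Fcgr1 fell from 205, 185, 181 and 173 CPM in WT control to 40.1, 35.6, 36.4 and 34.4 CPM, 5.09-fold lower (-2.35 ± 0.060, adjusted p = 5.04e-35). Every dexamethasone library was thus far below every control library. Fcgr3 rose from 482, 512, 484 and 496 CPM to 797, 806, 791 and 815 CPM (0.70 ± 0.042), without overlap. Fcgr4 rose from 37.9 ± 2.77 to 47.6 ± 1.58 CPM (0.33 ± 0.063). The inhibitory Fcgr2b fell from 49.2 ± 1.55 to 32.9 ± 1.26 CPM (-0.58 ± 0.047) and Fcer1g from 726 ± 9.82 to 568 ± 12.1 CPM (-0.35 ± 0.031). All 5 members were called in WT, 2 higher and 3 lower, against 49.4% of tested genes.

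The KO libraries gave the same 5 directions, with all 5 members called where 48.5% of tested genes were. Fcgr1 fell from 169 ± 8.99 to 37.6 ± 1.49 CPM (-2.16 ± 0.059) and Fcgr3 rose from 441 ± 13.6 to 773 ± 16.4 CPM (0.81 ± 0.042). Fcgr4 rose by 0.46 ± 0.062, Fcgr2b fell by 0.49 and Fcer1g fell by 0.32 on the log2 scale. The genotype difference of the dexamethasone effect was called for none of the 5 members and for 0% of tested genes with edgeR. Unadjusted, 1 member (Fcgr1, 0.18 ± 0.084) and 617 genes had p under 0.05, and DESeq2 called 0 genes.

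When LPS was present, dexamethasone acted on the activating genes in both directions. In WT, Fcgr1 fell from 274, 248, 282 and 237 CPM with LPS alone to 71.5, 72.2, 78.7 and 74.6 CPM with both (-1.81 ± 0.055, adjusted p = 3.51e-32). Fcgr3 fell from 799.6, 721, 843 and 717 CPM to 318, 307, 329 and 312 CPM (-1.28 ± 0.043, adjusted p = 1.17e-30). Fcgr4 rose 2.46-fold, from 28.7 ± 2.5 CPM to 73.2, 71, 73.3 and 64.7 CPM (1.3 ± 0.064, adjusted p = 1.47e-23). None of these 3 pairs of groups overlapped, and how many of all tested genes were likewise apart was not counted. Fcgr2b rose a little further, from 341 ± 9.33 to 414 ± 9.03 CPM (0.28 ± 0.036), and Fcer1g from 1170 ± 59.8 to 1302 ± 11.9 CPM (0.15 ± 0.031). All 5 members were called, 3 higher and 2 lower, against 69.2% of tested genes.

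The same comparison in KO, which stays within sequencing lane 2, gave the same 5 directions with smaller sizes. Fcgr1 went from 286, 245, 300.5 and 286 CPM with LPS to 202, 190.1, 204 and 185 CPM with both (-0.52 ± 0.052, adjusted p = 9.45e-12). Fcgr3 fell from 748 ± 43.5 to 598 ± 39 CPM (-0.32 ± 0.042) and Fcgr4 rose from 40.2 ± 3.95 to 48.5 ± 4.4 CPM (0.27 ± 0.064), the latter with overlapping groups. Fcgr2b (0.12 ± 0.036, adjusted p = 0.00832) and Fcer1g (0.08 ± 0.031, adjusted p = 0.0351) were called at small sizes. The Fcgr2b call was lost without LPS library 4 (0.09, adjusted p = 0.0594), and the Fcer1g call when any of 5 of the 8 libraries was left out, without the low-count filter (0.08, adjusted p = 0.0781), with RLE size factors (0.05, 0.177) and with DESeq2 (0.05, 0.128). All 5 members were called where 38.1% of tested genes were.

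The genotypes differed in this effect of dexamethasone under LPS for 4 of the 5 members, where 45.4% of tested genes were called. The difference, KO minus WT, was 1.3 ± 0.075 for Fcgr1 (adjusted p = 4.05e-20), 0.96 ± 0.060 for Fcgr3 (adjusted p = 4.02e-19), -1.03 ± 0.091 for Fcgr4 (adjusted p = 1.08e-13) and -0.17 ± 0.051 for Fcgr2b (adjusted p = 0.0069). For Fcer1g it was -0.07 ± 0.043 (adjusted p = 0.161, 95% interval -0.16 to 0.01), and it was called with RLE size factors (-0.11, adjusted p = 0.0311), with DESeq2 (-0.11, 0.0133) and with no scaling (-0.14, 0.00352). Each effect in this difference was measured within 1 lane, lane 3 for WT and lane 2 for KO. An additive lane term cancels out of such a difference. The values with it, 1.3, 0.96, -1.03, -0.17 and -0.08 in the same order, therefore do not test lane.

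**Figure D2:**
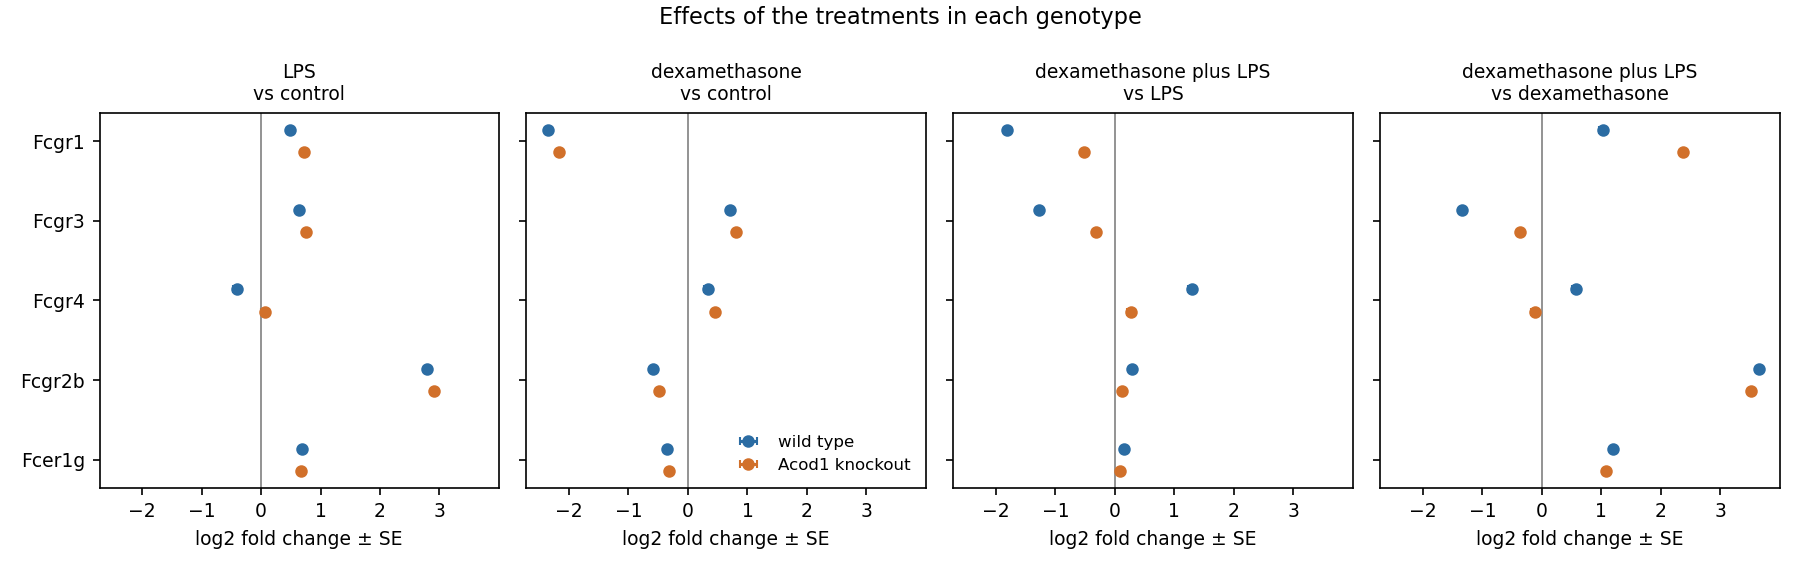
Log2 fold change of each member (x axis, ± SE) for 4 comparisons (panels), with WT and KO as colours. In both genotypes dexamethasone alone lowered Fcgr1 and raised Fcgr3, and the effect of dexamethasone in the presence of LPS was smaller in KO for Fcgr1 (-0.52 against -1.81), Fcgr3 (-0.32 against -1.28) and Fcgr4 (0.27 against 1.3).

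The effect of dexamethasone with LPS differed from its effect without LPS for all 5 members in WT, where 60.4% of tested genes were called. For Fcgr3 the sign changed: dexamethasone raised it without LPS and lowered it with LPS, a difference of -1.98 ± 0.060 (adjusted p = 8.58e-32). The differences were 0.54 ± 0.081 for Fcgr1, 0.97 ± 0.091 for Fcgr4, 0.86 ± 0.060 for Fcgr2b and 0.51 ± 0.043 for Fcer1g. Fcgr2b and Fcer1g also changed sign, from lower with dexamethasone alone to higher on top of LPS. In KO, 4 of the 5 were called against 41.8% of tested genes: Fcgr1 at 1.65 ± 0.079, Fcgr3 at -1.13 ± 0.059, Fcgr2b at 0.61 ± 0.060 and Fcer1g at 0.40 ± 0.043. Fcgr4 was at -0.19 ± 0.089 (adjusted p = 0.0868), and was called with RLE size factors and with DESeq2.

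The comparisons of LPS, of dexamethasone and of both with control share their control libraries, and those against a single agent share that group, so they are not independent of one another. Seen from dexamethasone alone, adding LPS raised Fcgr2b most. It went from 32.9 ± 1.26 to 414 ± 9.03 CPM in WT, 12.6-fold (3.65 ± 0.044), and from 32.2 ± 2.36 to 366 ± 10.4 CPM in KO, 11.4-fold (3.51 ± 0.044). Fcgr1 rose in both, by 1.02 ± 0.062 in WT and 2.38 ± 0.059 in KO, and Fcer1g by 1.2 ± 0.031 and 1.08 ± 0.031. Fcgr3 fell, by 1.34 in WT and 0.37 in KO. Fcgr4 rose in WT (0.57 ± 0.060) and was at -0.12 ± 0.061 in KO (adjusted p = 0.0848). The KO value was called in a fit of the compared groups alone (-0.12, adjusted p = 0.0288) and with no scaling (-0.35, 2e-06). In all, 5 members were called in WT and 4 in KO, against 73.3% and 75.9% of tested genes. The KO comparison crosses lanes: libraries with both agents came from lane 2, and 3 of those with dexamethasone alone from lane 3.

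Set against untreated cells, the combined treatment left WT cells with less Fcgr1 and Fcgr3 and more of the other members. Fcgr1 was lower by 1.33 ± 0.056 on the log2 scale (a fold of 2.51), and Fcgr3 had a log2 fold change of -0.64 ± 0.043. Fcgr4 was 1.86-fold higher (0.89 ± 0.062), Fcgr2b 8.41-fold higher (3.07 ± 0.042) and Fcer1g 1.79-fold higher (0.84 ± 0.031). In KO all 5 were higher: Fcgr1 by 0.21 ± 0.052, Fcgr3 by 0.44 ± 0.042, Fcgr4 by 0.34 ± 0.063, Fcgr2b by 3.01 ± 0.042 and Fcer1g by 0.75 ± 0.031. All 5 were called in each genotype, against 72.3% of tested genes in WT and 74% in KO. The KO comparison crosses lanes. Its Fcgr1 value was not called with a lane term (0.26 ± 0.12, adjusted p = 0.0705) or with no scaling beyond the library total (0.00), and without that scaling Fcgr4 was not called either (0.13). Without that scaling the median of all genes in this KO comparison lay at -0.21, against 0 with TMM, and for LPS against control it lay at -0.28 in WT and -0.27 in KO.

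Between genotypes, no member was called in untreated cells or with dexamethasone alone. In control libraries 0.541% of tested genes were called and 0 members with edgeR, while 3 members and 1235 genes in all had an unadjusted p under 0.05 and DESeq2 called 1 member, Fcgr3. Fcgr3 was at 421, 444, 452 and 446 CPM in KO, below the 482 to 512 CPM of WT without overlap (-0.16 ± 0.042, adjusted p = 0.0595). It was called with RLE size factors (adjusted p = 0.0464), without the low-count filter (0.00112) and in a fit of the 2 groups alone (0.00217), and not on lane 3 libraries alone (0.124). Fcgr1 differed by -0.14 ± 0.052 (adjusted p = 0.329, 95% interval -0.25 to -0.03), Fcgr2b by -0.12 ± 0.045, Fcgr4 by 0.01 ± 0.064 and Fcer1g by -0.02 ± 0.031. With dexamethasone 0.901% of tested genes and 0 members were called with edgeR and with DESeq2, and 1 member, Fcgr4 (0.14 ± 0.061), and 1495 genes in all had an unadjusted p under 0.05. The widest interval there was that of Fcgr1, -0.1 to 0.18.

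With LPS alone, 1 member differed between genotypes, where 10.2% of tested genes were called. Fcgr4 was 1.4-fold higher in KO, at 41.1, 36.9, 45.4 and 37.3 CPM against 32.1, 29, 26.3 and 27.4 CPM (0.49 ± 0.068, adjusted p = 7.88e-07). The genotype difference of the LPS effect was 0.47 ± 0.094 for Fcgr4 (adjusted p = 0.000847) and 0.24 ± 0.073 for Fcgr1 (adjusted p = 0.0473), so that 2 members were called where 3.72% of tested genes were. The Fcgr1 call was lost in a fit of the 4 groups alone (adjusted p = 0.129) and when any of 10 of the 16 libraries was left out. Lane and genotype coincide in LPS-treated cells, and with a lane term neither difference of LPS effects was called (Fcgr4 adjusted p = 0.101, Fcgr1 0.481), while Fcgr4 with LPS was (0.48 ± 0.12, adjusted p = 0.0421).

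With dexamethasone plus LPS all 5 members differed between genotypes, where 56.4% of tested genes were called. Fcgr1 was 2.63-fold higher in KO, at 202, 190.1, 204 and 185 CPM against 71.5, 72.2, 78.7 and 74.6 CPM (1.40 ± 0.056, adjusted p = 6.01e-27). Fcgr3 was 1.89-fold higher, at 561, 618, 643 and 571 CPM against 318, 307, 329 and 312 CPM (0.92 ± 0.043, adjusted p = 2.88e-24). Fcgr4 was lower, at 46.7, 43.2, 51.7 and 52.5 CPM against 73.2, 71, 73.3 and 64.7 CPM (-0.54 ± 0.060, adjusted p = 6.83e-11). The groups overlapped for none of the 5, and the share of all tested genes without overlap was not counted. Fcgr2b (-0.18 ± 0.036) and Fcer1g (-0.10 ± 0.030, adjusted p = 0.00369) were slightly lower in KO. Here too lane and genotype coincide. A lane term rests on the KO group with dexamethasone alone, where 1 library came from lane 2 and 3 from lane 3. It left Fcgr1 (1.42 ± 0.12, adjusted p = 2.96e-13), Fcgr3 (0.90 ± 0.083, adjusted p = 1.86e-12) and Fcgr4 (-0.54 ± 0.12, adjusted p = 0.000214) called. Fcgr2b (0.01, adjusted p = 0.975) and Fcer1g (-0.08, adjusted p = 0.336) were not called with it. That lane 2 library lay within the range of the lane 3 libraries of its group for Fcgr1, Fcgr3, Fcgr4 and Fcer1g, and below it for Fcgr2b (29.2 CPM against 31.7 to 34.7 CPM).

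The balance of activating against inhibitory RNA was described for each library as the sum of Fcgr1, Fcgr3 and Fcgr4 over Fcgr2b, in CPM per kb of exon sequence. In WT control it was 45.4, 46.2, 43.2 and 47.1, and with dexamethasone it was 95, 90.9, 87.2 and 88.9. With LPS it was 9.95, 8.83, 10.5 and 9.29, and with both it was 3.8, 3.71, 3.77 and 3.65. The 4 WT treatments therefore formed 4 separate ranges, and the combined treatment was the lowest. The KO means were 44.7 ± 1.43 in control, 90.5 ± 6.78 under dexamethasone, 9.81 ± 0.596 with LPS and 7.26 ± 0.274 with both (SD, n = 4). WT and KO ranges overlapped in 3 treatments and lay apart with both agents, 6.91 to 7.58 in KO against 3.65 to 3.8 in WT. Lane and genotype coincide there, and with a lane term the genotype difference of Fcgr2b went from -0.18 to 0.01. The ratio has no test of its own, since it is a score over the chosen members.

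Per kb, the sum of the activating genes ran from 386 ± 8.39 in WT control to 514 ± 4.7 with dexamethasone, 567 ± 43.5 with LPS and 267 ± 8.5 with both, so the LPS change in the ratio was carried by Fcgr2b, at 8.51 ± 0.267 in control and 58.8 ± 1.61 with LPS. With dexamethasone the activating sum rose and Fcgr2b fell to 5.69 ± 0.218 in WT, and both raised the ratio. Taken singly over Fcgr2b in WT, Fcgr3 rose from 33.5 to 81.3 and Fcgr4 from 3.55 to 6.67, while Fcgr1 fell from 8.4 to 2.5. Fcgr3 held 73.6% of the activating sum in WT control. Without Fcgr3 the log2 change of the ratio with dexamethasone against control turned from 0.99 to -0.39 in WT and from 1.02 to -0.27 in KO. The changes with LPS and with both agents stayed below 0 without it. The level of the ratio depends on the length used for Fcgr2b, whose summed exons cover 5790 bases while its longest coding transcript has 3544. With transcript lengths the log2 changes in WT were 1.05 with dexamethasone, -2.22 with LPS and -3.63 with both, against 0.99, -2.24 and -3.61.

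**Figure D3:**
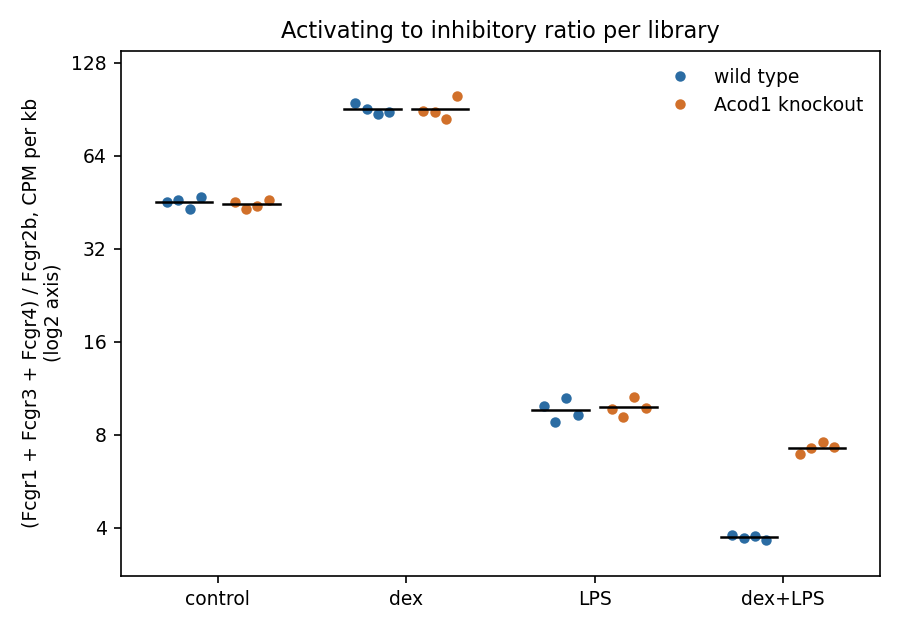
Ratio of summed activating to inhibitory receptor RNA per library (y axis, log2 scale, CPM per kb over CPM per kb) by treatment and genotype. Points are libraries and lines are group means. The ratio is near 45 in both genotypes without treatment, 90.5 on average with dexamethasone in each, and separates into 3.73 in WT and 7.26 in KO with both agents. With both agents, genotype and sequencing lane coincide.

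The make-up of the activating RNA also shifted. Fcgr1 made up 18.6% ± 1.22 (SD, n = 4) of the activating sum per kb in WT control, 2.75% ± 0.204 under dexamethasone, 17.8% ± 0.265 with LPS and 10.8% ± 0.342 with both. Fcgr4 made up 7.82% ± 0.516, 7.38% ± 0.291, 4.04% ± 0.431 and 21.1% ± 0.896 in the same order. In KO with both agents, where genotype and lane coincide, the shares were 16.5% ± 0.9 for Fcgr1 and 8.44% ± 0.834 for Fcgr4. The shared chain Fcer1g stood at 2.15 times the activating sum per kb in WT control, 1.26 under dexamethasone, 2.37 with LPS and 5.58 with both, and at 3.03 in KO with both. Fcer1g RNA per kb thus exceeded the sum of these 3 receptor genes in every group. Other receptors also use this chain and are not in the sum.

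**Figure D4:**
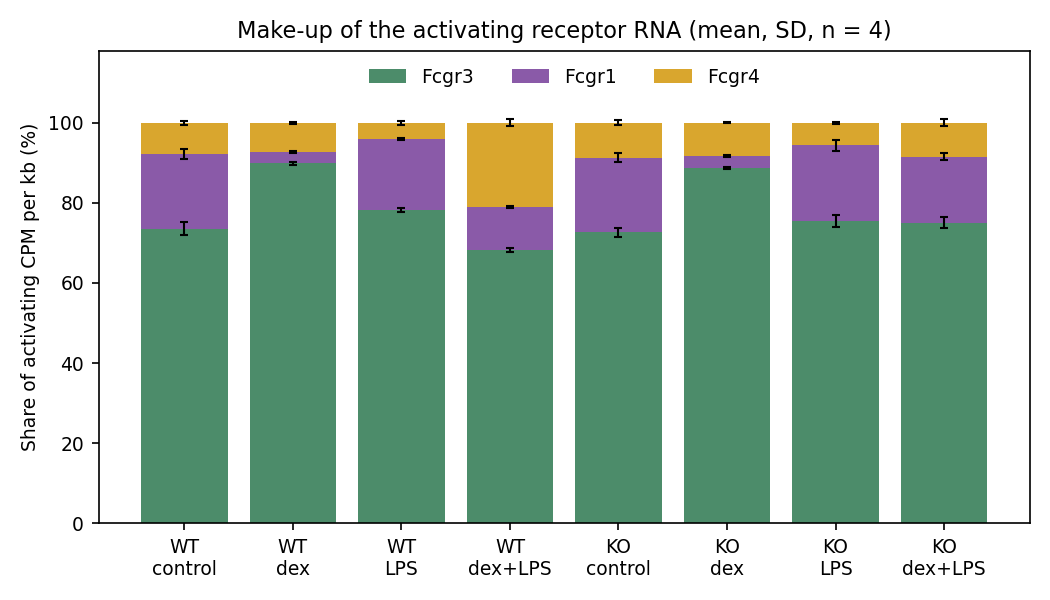
Share of Fcgr3, Fcgr1 and Fcgr4 in the summed activating CPM per kb (y axis, percent) for each group. Bars are means of 4 libraries and error bars the SD of each share. Fcgr3 holds the greatest share in each group, from 68.2% to 89.9%, Fcgr1 shrinks to 2.75% with dexamethasone in WT, and Fcgr4 reaches 21.1% in WT with both agents.

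Over the 8 groups each member had its own order. Fcgr1 was lowest with dexamethasone, where WT and KO overlapped, then came WT with both agents, then WT and KO control and KO with both, whose neighbours in the order overlapped, and highest were WT and KO with LPS, 7.63-fold above the lowest group. Fcgr3 spanned 2.54-fold, from WT with both agents to WT with dexamethasone, and its LPS groups overlapped with each other and with KO dexamethasone, and the range of WT with LPS (717 to 843 CPM) also covered that of WT with dexamethasone (791 to 815 CPM). Fcgr4 spanned 2.46-fold, with WT alone at both ends: LPS lowest, both agents highest. Fcgr2b spanned 12.9-fold in 2 tiers, and Fcer1g 2.29-fold in the same order of treatments: dexamethasone, control, LPS and both. Across the 32 libraries log2 levels of Fcgr2b and Fcer1g had a Pearson r of 0.99, against 0.57 for Fcgr1 and Fcgr2b, -0.07 for Fcgr1 and Fcgr3, -0.43 for Fcgr3 and Fcgr4 and -0.62 for Fcgr1 and Fcgr4. These are descriptions over libraries that share treatment groups, and carry no p.

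Among 9795 genes that averaged 5 CPM or more, the 3 whose log2 levels over the 32 libraries were most like each member were listed. For Fcgr1 they were Trafd1 (r = 0.995), Cmpk2 (0.995) and Irf9 (0.993). Cmpk2, for example, went from 135 ± 11.1 CPM in WT control to 23.3 ± 3.48 under dexamethasone, 262 ± 22.2 with LPS and 52.6 ± 2.2 with both, and was at 168 ± 3.61 CPM in KO with both. For Fcgr3 they were Klf6 (0.982), Adam8 (0.961) and Zmiz1 (0.958), and for Fcgr4, Tagap (0.941), Msrb1 (0.929) and D230025D16Rik (0.925). Klf6 was at 301 ± 6.34 CPM in WT with both agents, its lowest group, as Fcgr3 was. Msrb1 was at 419 ± 12.1 CPM in WT with both and 236 ± 15 CPM in KO with both. For Fcgr2b they were Cybb (0.999), Abcc5 (0.997) and Cct3 (0.997), and for Fcer1g, Mvp (0.996), Pilra (0.994) and Dram1 (0.994). Cybb, which encodes a subunit of the phagocyte NADPH oxidase, was at 1160 ± 58 CPM in WT control, 865 ± 9.32 under dexamethasone, 6460 ± 657 with LPS and 7720 ± 88.5 with both.

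Genes of the activating signalling arm were mixed with LPS and mostly higher when dexamethasone was added to LPS. Of 22 listed genes, all tested, 8 rose and 13 fell with LPS in WT (median log2 fold change -0.25, against -0.02 for all genes). Of all tested genes 37.4% rose and 38.3% fell. Syk, the kinase that binds the phosphorylated ITAM, rose from 437 ± 5.5 to 1280 ± 49.9 CPM (1.55 ± 0.028), and Lcp2, an adaptor downstream of Syk, rose by 2.13 ± 0.039. The kinase Src rose from 3.78 to 130 CPM (5.10 ± 0.079), and the adaptor Lat2 fell by 1.60. With dexamethasone plus LPS against LPS in WT, 17 rose and 2 fell (median 0.36, against 0.01), where 34.6% of all tested genes rose and 34.5% fell. The Src family kinase Fgr went from 2.41 to 146 CPM (5.91 ± 0.12), and the PI3-kinase subunits Pik3r1 (1.06 ± 0.040) and Pik3cd (1.04 ± 0.040) rose. Src fell back to 11.1 CPM (-3.54 ± 0.066) and Syk was at 0.02 ± 0.027 (adjusted p = 0.59). In KO 12 rose and 3 fell (median 0.11, against 0), where 20.8% of all genes rose and 17.3% fell. Between genotypes with both agents, 4 of the 22 were higher and 14 lower in KO (median -0.16, against 0; 28.5% and 27.9% of all genes), among them Src (2.91 ± 0.067) and Fgr (-1.35 ± 0.075). That genotype comparison coincides with lane.

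Most genes listed for the inhibitory arm of the signalling fell with LPS. Of 9 listed, 1 rose and 7 fell in WT (median -0.73, against -0.02 for all genes, of which 37.4% rose and 38.3% fell). Inpp5d, which encodes SHIP, fell from 367 to 210 CPM (-0.80 ± 0.032) and Ptpn6, which encodes the phosphatase SHP-1, from 351 to 212 CPM (-0.73 ± 0.043). Cblb, a ubiquitin ligase, fell by 1.87 and the adaptor Dok3 by 0.85. When dexamethasone was added to LPS in WT, 6 rose and 2 fell (median 0.27, against 0.01; 34.6% and 34.5% of all genes): Ptpn6 by 1.24 ± 0.043, Cblb by 1.22 ± 0.047, Dok3 by 1.18 ± 0.055 and Inpp5d by 0.64 ± 0.032, while Inppl1, a relative of Inpp5d, fell by 1.43. In KO 4 rose and 2 fell (median 0.06, against 0; 20.8% and 17.3% of all genes). With dexamethasone alone in WT 3 rose and 3 fell, where 21.2% and 28.2% of all genes did, with Inpp5d higher by 0.95 ± 0.031 and Inppl1 lower (-1.31 ± 0.039).

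**Figure D5:**
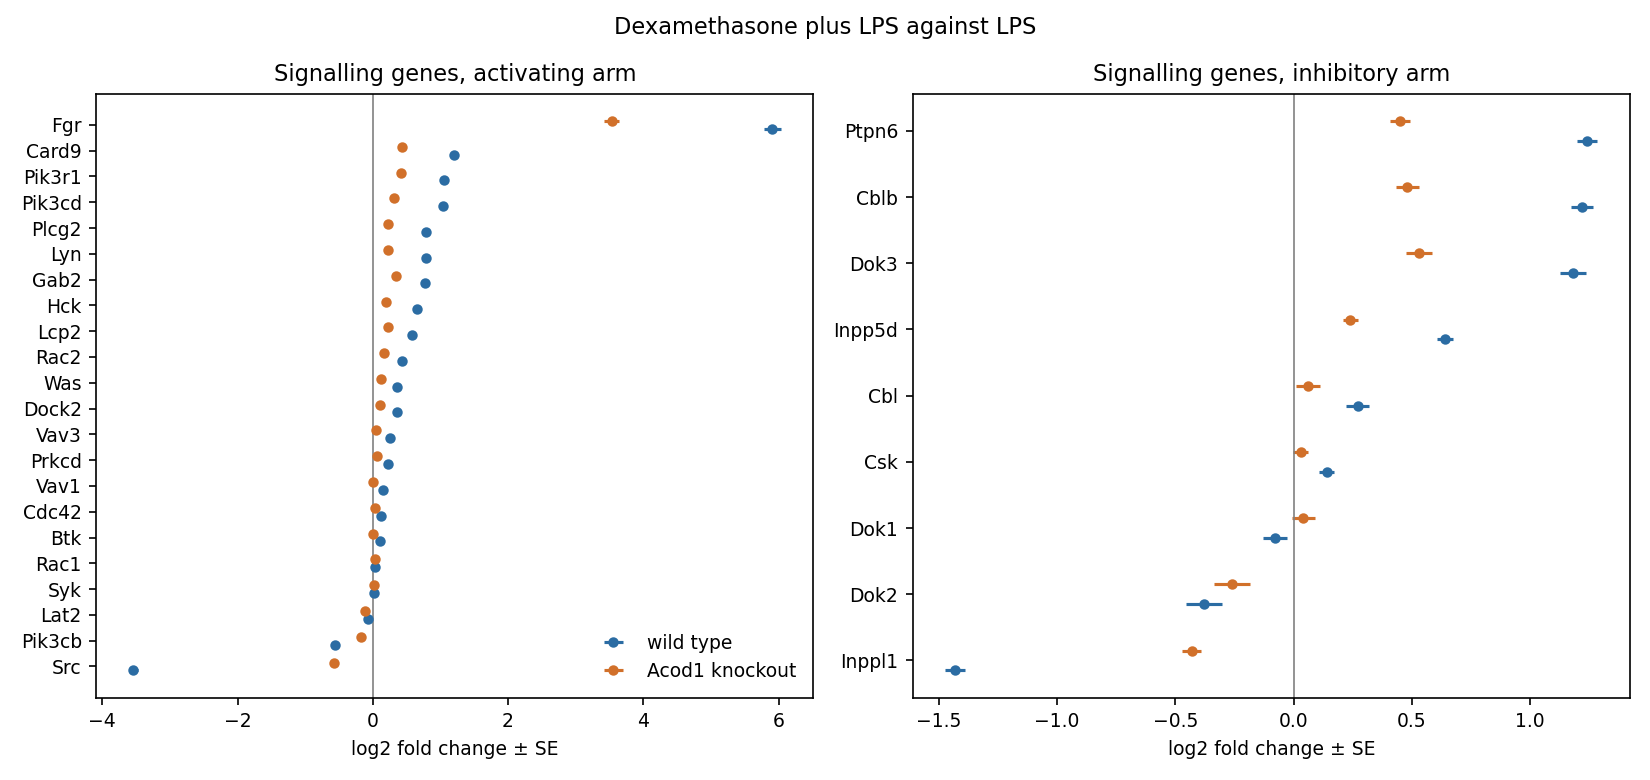
Log2 fold change (x axis, ± SE) with dexamethasone plus LPS against LPS for the tested genes of the activating arm (left) and inhibitory arm (right), ordered by the WT value. WT and KO are the colours and the panels have different x ranges. Fgr (5.91 in WT, 3.53 in KO) and Src (-3.54 and -0.58) lie at the ends of the left panel.

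Most tested receptors other than the Fc gamma receptors that pair with the Fcer1g chain rose with LPS. Of 7 listed, 6 were tested, and 5 rose and 1, Pira2 (-1.07 ± 0.048), fell in WT (median 3.12, against -0.02 for all genes, of which 37.4% rose and 38.3% fell). Pira2 lies outside the rule for named genes and was chosen after its value was seen. Clec4e, which encodes Mincle, a receptor for mycobacterial glycolipid, rose from 64.8 to 5180 CPM (6.32 ± 0.046), Clec4n, which encodes Dectin-2, from 6.99 to 181 CPM (4.69 ± 0.082), and Clec4d by 1.55 ± 0.038. With dexamethasone on top of LPS none of the 6 rose and 4 fell (34.6% and 34.5% of all genes), with Clec4n down to 9.68 CPM (-4.23 ± 0.077) and Clec4e at -0.05 ± 0.035 (adjusted p = 0.226). In KO Clec4n was at 80 CPM with both agents. Tyrobp, the sister adaptor DAP12, fell with LPS from 634 to 264 CPM (-1.26 ± 0.036), opposite to Fcer1g, and rose with dexamethasone on top (0.58 ± 0.036). Of the 8 genes listed with Tyrobp, itself included, 4 rose and 4 fell with LPS in WT, where 75.7% of all genes were called, with its partner receptors Trem1 (3.81 ± 0.13) and Trem2 (-3.76 ± 0.051) among them.

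Other receptors with an ITIM did not move as one group with Fcgr2b. Of 12 listed, 11 were tested, and 5 rose and 6 fell with LPS in WT (median -0.07, against -0.02), where 75.7% of all genes were called. Siglece rose from 2.97 to 95.9 CPM (5.00 ± 0.078) and Pilra from 3.72 to 113 CPM (4.93 ± 0.078), while Cd300a fell from 269 to 9.85 CPM (-4.76 ± 0.058) and Ceacam1 by 2.22. On top of LPS, dexamethasone raised 7 and lowered 4 in WT (median 0.41, against 0.01; 69.2% of all genes called), with Siglece (1.15 ± 0.046), Pilra (0.80 ± 0.048), Pirb (0.65 ± 0.029) and Ceacam1 (1.93 ± 0.081) higher and Clec12a (-0.94 ± 0.040) and Cd300a (-2.33 ± 0.12) lower. Among other receptors for immunoglobulin, 4 of 12 listed were tested. Fcgrt, the neonatal Fc receptor that recycles IgG, fell from 72.6 to 13.9 CPM with LPS (-2.39 ± 0.067) and rose to 125 CPM with dexamethasone (0.78 ± 0.052), and Trim21, the cytosolic antibody receptor, rose by 0.30 ± 0.047 with LPS.

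Genes known to regulate Fc gamma receptor expression also went both ways. Of 13 listed, all tested, 5 rose and 7 fell with LPS in WT (median -0.18, against -0.02), where 75.7% of all genes were called. With dexamethasone on top 4 rose and 8 fell (median -0.38, against 0.01), where 69.2% were. C5ar1, the C5a receptor, fell with LPS (-2.27 ± 0.044) and rose with dexamethasone on top (1.48 ± 0.043). Irf8 was lower with LPS (-0.78 ± 0.034) and lower again with both (-1.03 ± 0.037), Il4ra rose by 2.05 ± 0.047 and fell by 1.52, and Ifngr1 fell by 1.02 and rose by 0.51 ± 0.036. In the comparison of genotypes with both agents, 7 were higher and 4 lower in KO (median 0.18, against 0), where 56.4% of all genes were called. Of 6 listed complement receptor genes, 5 were tested. With LPS in WT, Itgam (1.37 ± 0.042) and Itgb2 (1.42 ± 0.030), the chains of the complement receptor CR3, rose, and Cr1l (-0.12 ± 0.040) and C3ar1 (-0.74 ± 0.046) fell.

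Genes within 100 kb of the receptor genes took different courses, and those named here were chosen after their values were seen. Fcrlb lay 45676 bases from Fcgr2b and rose with LPS in WT (4.15 ± 0.43) from a level of 0.125 CPM. Atf6, 90846 bases from Fcgr2b, fell by 0.68. Sdhc, 62230 bases from Fcgr3, fell by 0.14 and rose by 0.58 with dexamethasone on top of LPS, where Fcgr3 fell by 1.28. Pcp4l1, 33304 bases from Fcer1g, fell by 8.97 with LPS, where Fcer1g rose.

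Levels of other marker lists moved with treatment as well. The 7 B cell markers summed to 99.2 to 107 CPM in WT control, 52.4 to 55 under dexamethasone, 0.17 to 0.771 with LPS and 2.83 to 3.77 with both. Ighm made up most of the sums without LPS, and Ms4a1 was at 0 in each of these groups. The 7 T and NK cell markers summed to 0.205 to 0.427 CPM in WT control, 0.0799 to 0.25 under dexamethasone, 1.35 to 2.73 with LPS and 7.67 to 10.8 with both. In the groups with LPS most of it was Cd247, and Cd3e, Ncr1 and Nkg7 were at 0 in each of these groups. The 8 neutrophil markers summed to 50.2 to 58.7 CPM in WT control, 33 to 36.1 under dexamethasone, 57.6 to 63.5 with LPS and 44.8 to 51.4 with both, and to 77.9 to 88.4 CPM in KO with LPS and 69.7 to 74.4 CPM in KO with both, most of it Csf3r. Their part in the differences between genotypes was not tested. The 7 mast cell and basophil markers summed to 14.4 to 17.8 CPM in WT control, most of it Kit, 1.26 to 1.85 under dexamethasone, 1.66 to 2.63 with LPS and 0.202 to 0.342 with both, with Fcer1a and Mcpt4 at 0 in each. The 6 dendritic cell markers were highest under dexamethasone alone. They summed to 1 to 1.85 CPM in WT control, 16.1 to 17.3 under dexamethasone, most of it Flt3, 0.386 to 1.12 with LPS and 0.253 to 0.508 with both. In KO they summed to 1.05 to 1.81 CPM untreated and 13.8 to 15.6 CPM under dexamethasone. The part of these lists in the treatment effects on the receptor genes was not tested.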

How the data were processed

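RNA of mouse bone marrow-derived macrophages was sequenced as 32 libraries, 4 in each of 8 groups. Deposited values are unnormalized counts, 1 per gene and library, of read pairs; per the file headers the authors made it with featureCounts 2.0.0 on exons of the GENCODE vM32 annotation, without strand, and without pairs that map to several places or overlap several genes. Other deposited columns give gene coordinates, strand and exon length. STAR and a GRCm38 build are named per the submitters' processing notes, while vM32 is an annotation of a later build, so coordinates are given as the table has them, and promoters come from RefSeq on GRCm38.p6.

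From the counts, 14427 of 56953 genes passed edgeR's filterByExpr. TMM scaling and the quasi-likelihood test (edgeR 4.0.16, limma 3.58.1, R 4.3.3) were run on all 8 groups, 19 comparisons, without a block, with Benjamini-Hochberg adjustment within each comparison. The biological coefficient of variation was 4.36%. Groups were taken from the labels and lanes from the file headers. Totals of 17559079 to 25049200 pairs set the precision. In data simulated for LPS against control in WT over 13876 genes, 88% of 2-fold rises, 95.8% of 2-fold falls, 63% of 1.3-fold rises and 65.3% of 1.3-fold falls were called. The simulation left 13683 genes unchanged and gave all groups a common mean, whereas 75.7% of genes were called in the data. Its rates are thus not those of the real comparison. Alternatives were RLE factors, no scaling, no filter, DESeq2 1.42.0, the compared groups alone, a replicate block, a lane term, lane 3 alone and each library left out.

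The members and gene lists were chosen with earlier results of these data known. Named genes were the 5 members, up to 4 genes of each list by smallest adjusted p in LPS against control or dexamethasone plus LPS against LPS (both WT), the 3 genes most correlated with each member, and tested genes within 100 kb. Samples with the same replicate number did not vary together (correlations of -0.03 to 0.06). No pair of libraries in a group agreed within sampling noise (chi-square per degree of freedom 1.97 to 16.3). Some genes that the rule names are not reported here.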

Additional observations from a re-analysis of the deposited data

Results flagged for a closer look

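In 3 of 40 sets of 4 values, 1 set for each member and group, 1 library stood apart from the other 3 by Dixon's test. Chance gives this in about 1 in 20 sets, and sets from the same libraries are not independent. Fcgr4 in WT dexamethasone library 3 was at 49.99 CPM against 46.57 to 47.05 CPM in the others. Fcgr4 in KO control library 2 was at 34.28 CPM against 39.31 to 39.75 CPM. Fcer1g in WT LPS library 3 was at 1259 CPM against 1134 to 1148 CPM.

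The effect of LPS differed between genotypes, KO minus WT, by 0.24 for Fcgr1 (edgeR, adjusted p = 0.0473) and 0.47 for Fcgr4 (adjusted p = 0.000847), on the log2 scale. Of all tested genes 3.72% were called. Genotype and lane coincide in the libraries with LPS, and with a lane term neither was called (Fcgr1 adjusted p = 0.481, Fcgr4 0.101). The Fcgr1 call was also lost when any of 10 of the 16 libraries was left out. The effect of dexamethasone under LPS differed by 1.3 for Fcgr1 (adjusted p = 4.05e-20), 0.96 for Fcgr3 (4.02e-19), -1.03 for Fcgr4 (1.08e-13) and -0.17 for Fcgr2b (0.0069). The effect of dexamethasone with LPS minus that without LPS was in WT 0.54 for Fcgr1 (adjusted p = 1.31e-07), -1.98 for Fcgr3 (8.58e-32), 0.97 for Fcgr4 (2.9e-13), 0.86 for Fcgr2b (9.98e-18) and 0.51 for Fcer1g (1.48e-14). In KO it was 1.65 for Fcgr1 (adjusted p = 3.85e-23), -1.13 for Fcgr3 (1.27e-21), 0.61 for Fcgr2b (3.33e-12) and 0.40 for Fcer1g (6.08e-11). Of all tested genes 45.4% were called for the genotype difference of dexamethasone under LPS. For the effect with LPS minus that without, 60.4% were called in WT and 41.8% in KO.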

How the results depend on the processing

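Of 95 member values, 90 kept direction and call with RLE size factors, 87 with no scaling beyond the library total, 93 without the low-count filter, 87 with a lane term, 92 in fits of the compared groups alone and 90 with DESeq2. Lane 3 alone allowed 50 values, of which 47 did. A lane term cancels out of comparisons within 1 lane, and lane 3 alone keeps every WT library. For comparisons among WT groups these counts therefore do not test lane. The lane term also cancels for dexamethasone plus LPS against LPS in KO and for the genotype difference of that effect. The replicate block changed 1 call, Fcgr3 in KO against WT control (-0.16, adjusted p = 0.0317). Whether replicate numbers pair the libraries is not stated in the labels. The cause of the changes below was not tested. Depth was not varied.

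With RLE factors Fcer1g was at 0.05 for dexamethasone plus LPS against LPS in KO (adjusted p = 0.177), 0.00 for the genotype difference of the LPS effect and -0.11 for that of dexamethasone under LPS (0.0311), Fcgr3 at -0.17 in KO against WT control (0.0464) and Fcgr4 at -0.22 for the KO interaction (0.0396). DESeq2 gave 0.05 (0.128), 0.00, -0.11 (0.0133), -0.17 (0.0311) and -0.22 (0.0432) in the same order. Without scaling Fcgr4 in KO was at -0.17 for LPS against control (adjusted p = 0.0163), -0.35 for dexamethasone plus LPS against dexamethasone and 0.13 for dexamethasone plus LPS against control (0.0576), where Fcgr1 was at 0.00 (0.96). Fcgr2b (0.02) and Fcer1g (0.00) turned in KO against WT with LPS, and Fcer1g was at 0.01 for the genotype difference of the LPS effect and -0.14 for that of dexamethasone under LPS (0.00352). Without the filter Fcer1g for dexamethasone plus LPS against LPS in KO stayed at 0.08 (0.0781) and Fcgr3 in KO against WT control was at -0.17 (0.00112). In fits of the compared groups alone Fcgr3 was at -0.16 there (0.00217), Fcgr4 at -0.12 for dexamethasone plus LPS against dexamethasone in KO (0.0288) and Fcgr1 at 0.25 for the genotype difference of the LPS effect (0.129).

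With a lane term Fcgr1 was at 0.26 for dexamethasone plus LPS against control in KO (adjusted p = 0.0705), and the genotype difference of the LPS effect at 0.29 for Fcgr1 (0.481) and 0.48 for Fcgr4 (0.101). In KO against WT, Fcer1g was at 0.01 in control and -0.08 with both agents (0.336), and Fcgr2b at 0.01 with dexamethasone, 0.17 with LPS (0.51) and 0.01 with both (0.975). In lane 3 alone Fcgr4 (-0.01) and Fcer1g (0.00) turned in control and Fcgr2b (0.01) with dexamethasone.

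The log2 change of the ratio was 0.89 with dexamethasone and -3.71 with both in WT when CPM was not divided by length. Without Fcgr3 it was -0.39, -2.52 and -3.34 in WT and -0.27, -2.34 and -2.76 in KO with dexamethasone, LPS and both. Transcript lengths, an alternative chosen after seeing the data, left all 6 changes within the spread between libraries.

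Leaving out each library in turn kept 926 of 960 member values. Of the others, the genotype difference of the LPS effect ran from 0.19 to 0.3 for Fcgr1 and from -0.04 to 0.02 for Fcer1g. Dexamethasone plus LPS against LPS in KO ran from 0.09 to 0.14 for Fcgr2b and from 0.07 to 0.09 for Fcer1g. KO against WT ran in control from -0.01 to 0.07 for Fcgr4 and -0.03 to 0.01 for Fcer1g, with dexamethasone from -0.07 to 0.01 for Fcgr2b, and with LPS from 0.06 to 0.16 for Fcgr1 (called without KO LPS library 2, adjusted p = 0.0373), -0.07 to 0.00 for Fcgr3, -0.04 to 0.01 for Fcgr2b and -0.04 to 0.01 for Fcer1g. The genotype difference of dexamethasone under LPS ran from -0.11 to -0.06 for Fcer1g (called without WT LPS library 3, adjusted p = 0.0113). For Fcgr4 the KO interaction ran from -0.23 to -0.12 (called without KO LPS library 2 or KO dexamethasone plus LPS library 4), and dexamethasone plus LPS against dexamethasone in KO from -0.15 to -0.06 (called without KO dexamethasone plus LPS library 3 or 4).

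Over all genes, KO against WT gave 78 calls in control (137 without the filter, 121 in the groups alone, 47 to 73 with a library left out), 130 with dexamethasone (201, 401 and 69 to 119 likewise, 75 with a lane term, 82 in lane 3), 1468 with LPS (112 with a lane term, 667 in the groups alone) and 8137 with both (4834 with a lane term). The genotype difference of the LPS effect gave 536 (113 with a lane term, 314 alone), and that of dexamethasone 0 (6 without the filter, 1 alone, up to 3 with a library left out).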
